A study of Oryza sativa Indica Group with 18 samples.

Results

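The protein phosphatase 2C (PP2C) family of rice was followed through a stepwise heat treatment of 2 indica cultivars, Annapurna and IR64. Members were all genes whose symbol or synonym, with or without the prefix Os, begins with PP2C and a number. The gene annotation used here, which is not limited to the array, lists 60 such genes. Of them 55 have a probe set of their own, out of 17905 genes so represented in the series. The other 5, OsPP2C41, OsPP2C49, OsPP2C50, OsPP2C65 and OsPP2C77, were not analysed here. All 55 measured members were tested without a filter on low values. Of a gene's probe sets, the one with the highest mean was used.

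Whole seedlings were grown in hydroponic culture for 7 days, and their RNA was read on Affymetrix rice arrays, with 6 groups of 3 arrays that the labels call biological replicates. In each cultivar, unstressed controls stood in growth medium at 28 °C for 3 h, a second group spent 1 h at 37 °C, and the last group spent 1 h at 37 °C followed by 2 h at 42 °C, in the light. These groups are called 28 °C, 37 °C and 42 °C. The 37 °C seedlings were sampled after 1 h and the others after 3 h, so temperature and elapsed time cannot be told apart in any comparison that uses a 37 °C group within a cultivar. The submitters describe 1 cultivar as tolerant of heat and 1 as susceptible; the sources name neither role, nor the number of seedlings behind each RNA.

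PP2C enzymes are metal-dependent serine/threonine phosphatases and one of the largest phosphatase families of plants. The members of clade A are the co-receptors of the stress hormone abscisic acid (ABA). Without ABA they dephosphorylate and silence kinases of the SnRK2 family, which rice calls SAPK. When ABA is bound, the PYR/PYL/RCAR receptors hold these phosphatases inactive, so that the kinases can activate bZIP transcription factors. Transcripts of clade A genes are themselves known to be induced by ABA in Arabidopsis and rice, as negative feedback on the pathway. Clade A counts 9 genes in the annotation and 7 measured ones, OsPP2C06 (ABIL1), OsPP2C08, OsPP2C09, OsPP2C30, OsPP2C51, OsPP2C53 (ABIL2) and OsPP2C68 (OsPP108, also named SIPP2C1). The other 48 measured genes belong to clades with roles in immunity, kinase control and development, many of them without a known role in rice.

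Values are linear intensities, and each log2 difference is the difference in log2 of intensity plus 16, ± its standard error from a limma fit over all 18 arrays with 3 arrays a group. A gene was called where the Benjamini-Hochberg adjusted p over all probe sets was under 0.05 and the difference at least 2-fold, and only called genes are said to have risen or fallen. Intensities of different genes come from different probes and are not compared. The smallest p that an exact permutation of 3 arrays against 3 allows is 0.1. Arrays of a group correlated at 0.997 to 0.999 over all probe sets and arrays of different groups at 0.961 to 0.987. Markers of the labelled whole seedling were read on all arrays: the leaf genes CAB2R, RBCS and PORA summed to at least 60287 and the root silicon transporters LSI1 and LSI2 to at least 1089.

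Most members were called in no heat comparison. Over the 6 heat comparisons within cultivars, 16 of the 55 genes were called at least once (29.1%, against 24.2% of all 17905 genes), so that the share of the family lay near that of all genes. The called ones were 6 of the 7 clade A genes (85.7%) and 10 of the 48 others (20.8%). The median over genes of the largest size of log2 difference was 2.24 in clade A, 0.68 in the rest of the family and 0.60 over all genes. In Annapurna at 37 °C against 28 °C, 5 members rose (9.09%, against 5.56% of all 17905 genes) and 4 fell (7.27%, against 4.75%). In IR64 at 37 °C, 5 rose (9.09%, against 5.15%) and 1 fell (1.82%, against 4.07%). These shares of the whole family lie within a few genes of those of all genes.

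At 42 °C against 28 °C 6 members fell in Annapurna (10.9%, against 5.50% of all genes). The members that rose were 0, against 3.40% of all genes. At an unadjusted limma p under 0.05, 30 members had a negative and 8 a positive difference. Shares of all genes at the unadjusted p are not given. Counts at that p, here and below, therefore do not show how the members compare with all genes. In IR64 the called members at 42 °C were 5 that fell (9.09%, against 5.10%) and 1 that rose (1.82%, against 6.45%). Between the heat steps every called member fell: at 42 °C against 37 °C, 8 members fell in Annapurna (14.5%, against 6.39%) and 6 in IR64 (10.9%, against 3.93%). In that comparison 0 members rose in either cultivar, against 2.75% of all genes in Annapurna and 2.52% in IR64. At an unadjusted limma p under 0.05, 13 differences were positive and 27 negative in Annapurna, and 12 and 32 in IR64. The heat comparisons of a cultivar share arrays, so that their counts are not independent of each other.

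At a threshold of 1.5-fold in place of 2-fold, with the same adjusted p, members were called as follows beside the shares of all genes in brackets. In Annapurna 9 rose and 8 fell at 37 °C (all genes 11.0% and 13.4%), 4 rose and 15 fell at 42 °C (9.73% and 12.2%), and 4 rose and 14 fell at 42 °C against 37 °C (9.73% and 11.7%). In IR64 8 rose and 4 fell at 37 °C (11.8% and 11.8%), 8 rose and 11 fell at 42 °C (16.3% and 11.2%), and 2 rose and 11 fell at 42 °C against 37 °C (10.6% and 8.52%). In Annapurna against IR64, 14 were higher and 1 lower at 28 °C (11.0% and 6.0%), 10 and 2 at 37 °C (8.49% and 5.6%), and 10 and 5 at 42 °C (6.07% and 6.70%). The Annapurna response was higher for 5 and lower for 7 at 37 °C (3.93% and 4.59%), for 6 and 10 at 42 °C (5.90% and 12.6%), and for 4 and 8 at 42 °C against 37 °C (5.64% and 9.03%).

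**Figure D1:**
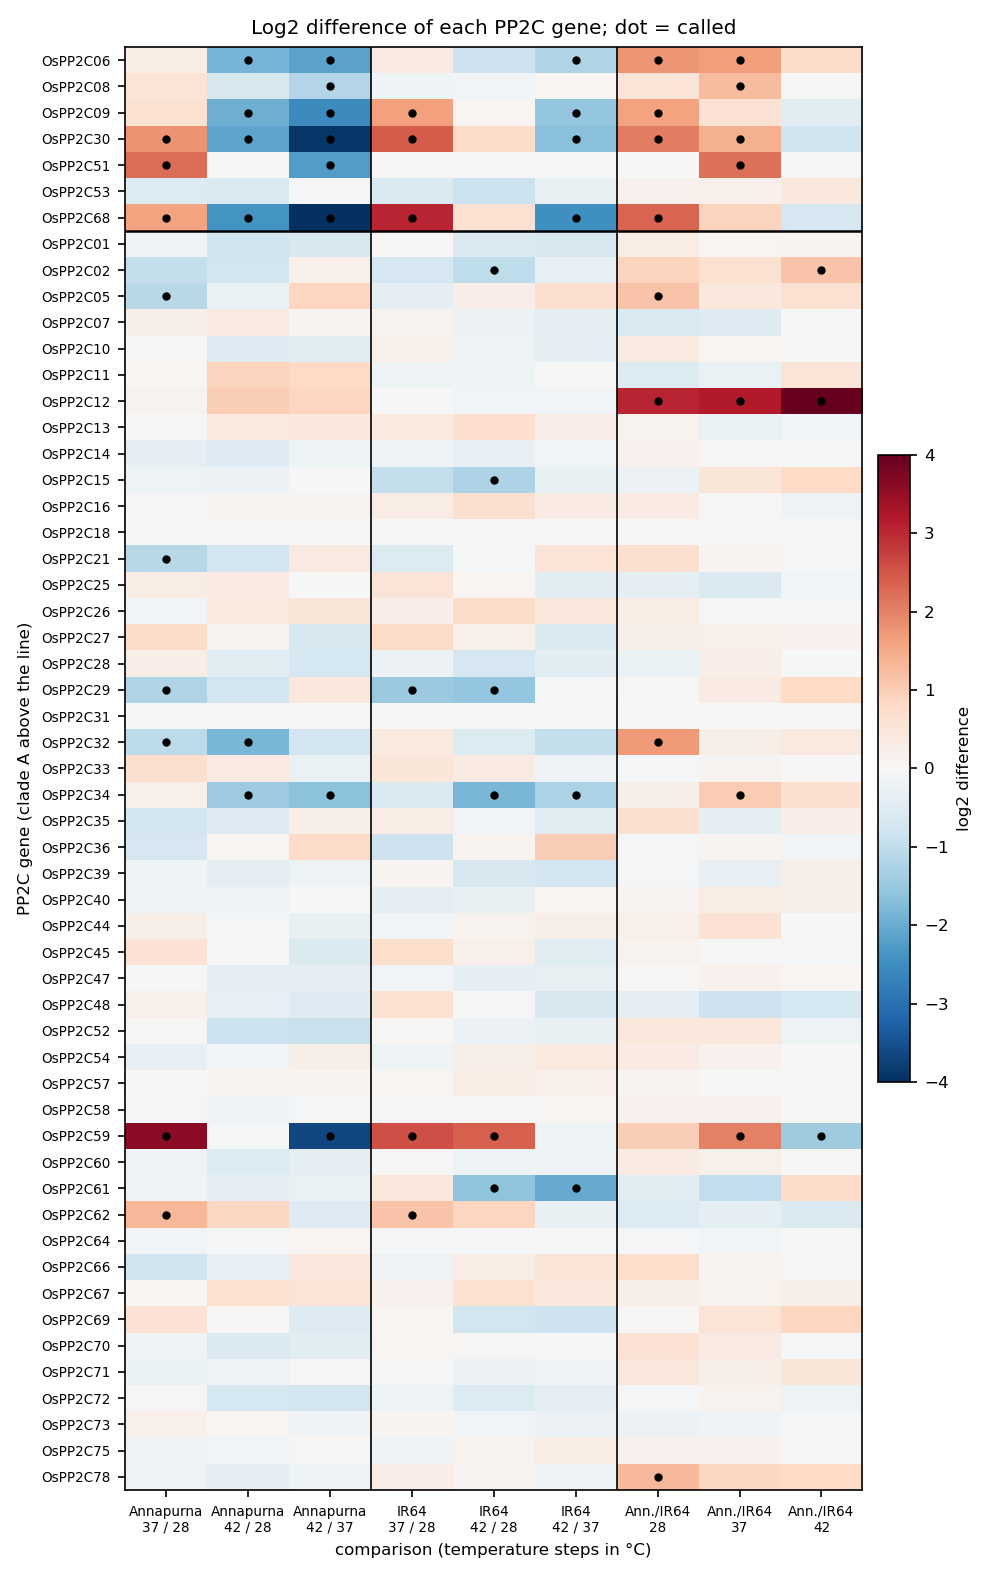
Log2 difference of each of the 55 measured PP2C genes (one line each, clade A on top) in 9 comparisons: 37 °C over 28 °C, 42 °C over 28 °C and 42 °C over 37 °C in each cultivar, and Annapurna over IR64 at each step. Colour gives the log2 difference from -4 (blue) to 4 (red), values past the ends drawn at the end colour, and a dot marks a called gene; 6 of the 7 clade A lines carry a dot in a heat comparison, and 10 of the 48 other lines do.

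Most clade A genes stood lower at 42 °C than at 37 °C in both cultivars, and several were highest at 37 °C. In Annapurna 3 of 7 rose at 37 °C (42.9%, against 5.56% of all genes), 4 of 7 fell at 42 °C against 28 °C (57.1%, against 5.50%), and 6 of 7 fell at 42 °C against 37 °C (85.7%, against 6.39%). In IR64 3 of 7 rose at 37 °C (42.9%, against 5.15%) and 4 of 7 fell at 42 °C against 37 °C (57.1%, against 3.93%). At 42 °C against 28 °C in IR64 0 of 7 were called, against 6.45% of all genes higher and 5.10% lower, with 2 positive and 2 negative differences at an unadjusted limma p under 0.05. The median log2 difference of the 7 genes was 0.61 at 37 °C and -1.87 at 42 °C in Annapurna, and 0.37 and -0.01 in IR64. The medians of all genes were -0.014, -0.0027, -0.0082 and 0.014 in the same order. The IR64 median of the 7 at 42 °C is the value of OsPP2C51. This gene read 4.78 to 4.82 in the IR64 controls and 4.62 to 4.69 at 42 °C, below the amount added before the logarithm. That median therefore does not show that the 7 genes were back at their control level. The median size of their differences in this comparison was 0.60, against 0.30 for all genes. In whole seedlings, fewer cells of a type and less RNA per cell cannot be told apart.

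OsPP2C30 binds the receptor PYL5 (RCAR5) and acts on the kinase SAPK2 in rice. In Annapurna it read 799, 762 and 561 at 28 °C, 2363, 2612 and 2465 at 37 °C and 146, 149 and 159.6 at 42 °C. In IR64 it read 127, 162 and 189 at 28 °C, 954, 899 and 901 at 37 °C and 289.8, 283 and 255 at 42 °C. The groups of each cultivar did not overlap: all 37 °C arrays were the highest in both, and the 42 °C arrays lay under the controls in Annapurna and over them in IR64. Against 28 °C the gene rose 3.49-fold at 37 °C in Annapurna (log2 difference 1.80 ± 0.13, adjusted p = 3.9e-08) and 5.38-fold in IR64 (2.43 ± 0.13, adjusted p = 1.9e-09). At 42 °C it fell by 2.10 on the log2 scale in Annapurna (adjusted p = 8.9e-09), and the difference was 0.75 ± 0.13 in IR64, short of 2-fold. Between 37 °C and 42 °C it fell in both cultivars, with log2 differences of -3.90 ± 0.13 in Annapurna and -1.68 ± 0.13 in IR64.

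OsPP2C68 (OsPP108), a phosphatase whose expression in Arabidopsis plants makes them insensitive to ABA, fell at 42 °C against 37 °C in both cultivars. Annapurna read 164, 199 and 214 at 28 °C, 641, 642 and 561 at 37 °C and 24.00, 25.3 and 21.03 at 42 °C. IR64 read 16.5, 31.4 and 29.2 at 28 °C, 303, 355 and 312 at 37 °C and 58.8, 34.1 and 48.3 at 42 °C. Each 37 °C array stood far above the other arrays of its cultivar, and at 42 °C the Annapurna arrays lay below all Annapurna controls while the IR64 arrays lay above all IR64 controls. The rise at 37 °C was 1.60 ± 0.16 log2 in Annapurna (adjusted p = 1.2e-06) and 3.04 ± 0.16 in IR64 (adjusted p = 1.6e-09). The gene fell in Annapurna at 42 °C against 28 °C (-2.40 ± 0.16, adjusted p = 2e-08), and IR64 differed by 0.60 ± 0.16, under the 2-fold threshold. From the 37 °C level the difference at 42 °C was -4.0 ± 0.16 in Annapurna and -2.44 ± 0.16 in IR64. The readings at 42 °C and in the IR64 controls are not far from the 16 added before the logarithm, so the sizes depend on the amount added. In Annapurna the difference at 42 °C against 37 °C was -4.66 with 1 added and -2.95 with 64, and in IR64 -2.78 with 1 and -1.81 with 64. In the same order the IR64 rise at 37 °C was 3.65 and 2.11, and the Annapurna difference at 42 °C against 28 °C -2.98 and -1.55, all still called.

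OsPP2C09, known in rice as a drought-responsive clade A phosphatase, was read by a probe set that covers several transcript forms. Its intensities in Annapurna were 1086, 1002 and 1066 at 28 °C, 1595, 1556 and 1696 at 37 °C and 247, 278 and 261 at 42 °C. In IR64 they were 343, 326 and 343 at 28 °C, 1069, 1072 and 1094 at 37 °C and 405, 357 and 324 at 42 °C. The 37 °C arrays were above the controls in both cultivars, and at 42 °C the Annapurna arrays were below their controls while the IR64 arrays overlapped theirs. The gene rose at 37 °C in IR64 (1.63 ± 0.065, adjusted p = 1e-10), with 0.61 ± 0.065 in Annapurna, under 2-fold. It fell at 42 °C against 28 °C in Annapurna (-1.94 ± 0.065, adjusted p = 1.9e-11), beside 0.09 ± 0.065 (adjusted p = 0.21) in IR64. Against 37 °C it fell in both, with -2.55 ± 0.065 in Annapurna and -1.54 ± 0.065 in IR64.

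The ABI1-like co-receptors ABIL1 and ABIL2 took different courses. OsPP2C06 (ABIL1) read 1484, 1512 and 1403 at 28 °C, 1809.7, 1724 and 1825 at 37 °C and 394, 387 and 384 at 42 °C in Annapurna, and 365, 389 and 518 at 28 °C, 593, 538 and 512 at 37 °C and 224, 233 and 226 at 42 °C in IR64. Its 42 °C arrays lay below all other arrays of the cultivar in both, while the 37 °C arrays overlapped the controls in IR64 and lay above them in Annapurna. It fell at 42 °C in Annapurna against 28 °C (-1.87 ± 0.092, adjusted p = 1e-09) and against 37 °C in both cultivars (-2.15 ± 0.092 in Annapurna and -1.21 ± 0.092 in IR64), while IR64 at 42 °C against 28 °C was at -0.83 ± 0.092, under 2-fold. OsPP2C53 (ABIL2) averaged 497 ± 25.4, 337 ± 15.1 and 317 ± 12.5 at the 3 steps in Annapurna (mean ± SD) and 446 ± 47.5, 293 ± 10.3 and 235 ± 10.6 in IR64. It was the 1 clade A gene called in no heat comparison: its differences against 28 °C were -0.54 and -0.62 in Annapurna and -0.57 and -0.87 in IR64, all under 2-fold although each passed adjusted p.

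OsPP2C51, known for promoting seed germination in rice, was read at 76.5, 81.8 and 87.1 in Annapurna at 37 °C. On the other 15 arrays it lay between 4.62 and 5.73, under the 16 added before the logarithm, and no such array came near those of Annapurna at 37 °C. The Annapurna rise of 2.24 ± 0.026 log2 (adjusted p = 1.5e-16) is from such a low reading, and its size depends on the amount added: it was 3.87 with 1 added and 1.09 with 64 added. A second probe set of OsPP2C51 stayed between 4.89 and 7.87 on all 18 arrays and was not called, at 0.14 ± 0.021 in Annapurna at 37 °C.

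OsPP2C08 was called in 1 heat comparison. It averaged 85.5 ± 12.1, 131 ± 6.23 and 49.2 ± 2.00 in Annapurna at 28, 37 and 42 °C and 54.7 ± 9.44, 45.8 ± 2.5 and 49.1 ± 2.53 in IR64 (SD, n = 3 each). It fell at 42 °C against 37 °C in Annapurna (-1.18 ± 0.1, adjusted p = 3.3e-07), a call that was lost with 64 added (-0.79), and was not called in any heat comparison of IR64, where its groups overlapped.

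**Figure D2:**
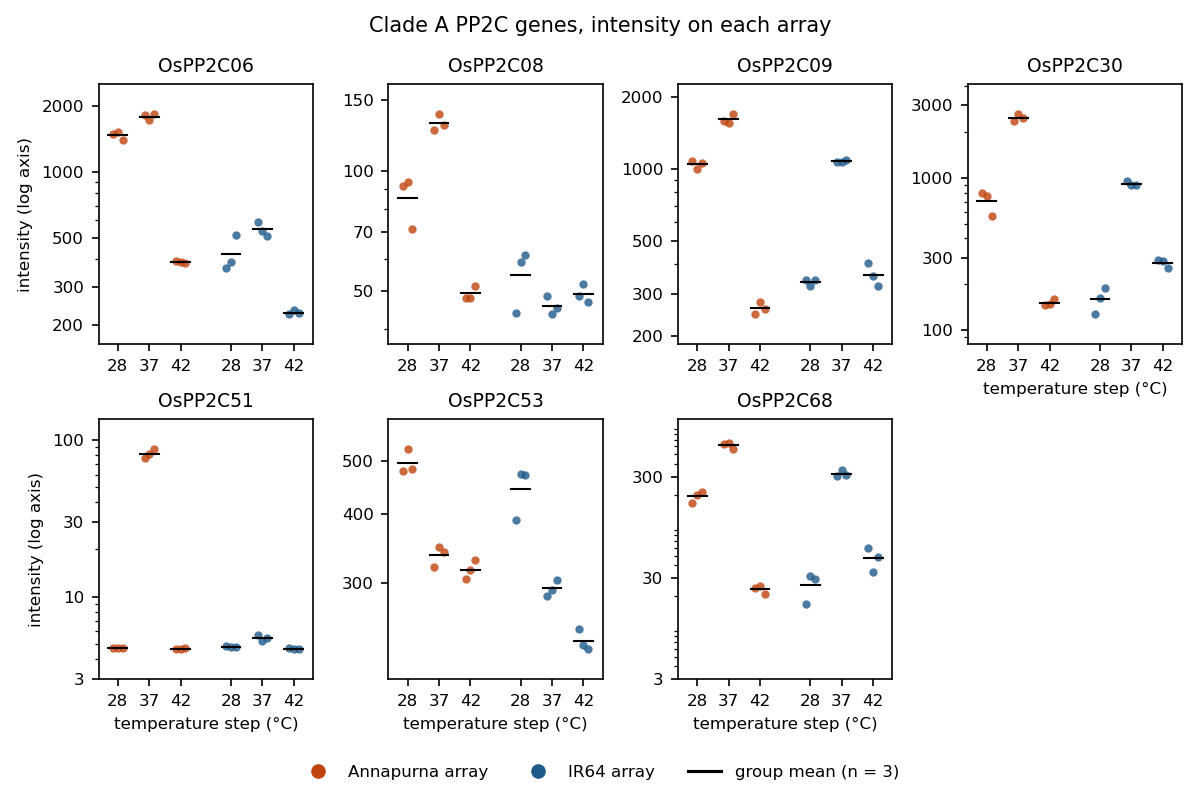
Intensity (log axis) of the 7 measured clade A genes on each of the 18 arrays by temperature step, Annapurna left and IR64 right in each panel, with a bar at each group mean of 3 arrays. OsPP2C09, OsPP2C30 and OsPP2C68 peak at 37 °C in both cultivars, OsPP2C51 stands apart only on the 3 Annapurna 37 °C arrays, and OsPP2C06 is lowest at 42 °C.

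In the same groups, markers of leaf, root and grain also moved at both heat steps, and their part in these results was not tested. Of 6 grain genes, 1 rose at 37 °C in Annapurna (AMY1.3 at 2.10), and in IR64 2 rose (AMY1.3 at 4.69 and GLB1 at 1.29) and AMY1.1 fell (-3.36). At 42 °C against 28 °C 1 rose in Annapurna (GLB1 at 1.81) and 3 in IR64 (AMY1.1 at 5.39, GLB1 at 2.51 and AMY1.3 at 2.04). At 42 °C against 37 °C AMY1.3 fell in Annapurna (-2.22), and in IR64 AMY1.1 (8.76), EP3A (1.5) and GLB1 (1.22) rose and AMY1.3 fell (-2.65). The summed grain intensities at 28, 37 and 42 °C ran from 813 to 1106, 1698 to 1834 and 2959 to 3266 in Annapurna and from 535 to 4099, 1828 to 1981 and 11657 to 13250.0 in IR64. The highest readings of the grain genes GLUA1 and AMY1.2 over the 18 arrays were 4.26 and 4.66. AMY1.1, an alpha-amylase of germinating grain, read 8767 to 10078 in IR64 at 42 °C against 37.9 to 3532 in the IR64 controls, the top value on control replicate 3, and 5.47 to 5.49 in Annapurna at 42 °C. Of the 2 root genes, LSI2 fell at 37 °C in both cultivars (-2.57 in Annapurna and -2.65 in IR64), and LSI1 rose at 42 °C against 28 °C (2.26 and 3.08). Both rose at 42 °C against 37 °C, LSI1 by 1.99 and 2.68 and LSI2 by 2.48 and 3.29 in Annapurna and IR64. Their sum at 28, 37 and 42 °C was 1737 to 2489, 1520.3 to 1627 and 6333 to 7087 in Annapurna, and 1089 to 1817, 1251 to 1295 and 8229 to 9193 in IR64. Of the 3 leaf genes PORA, of chlorophyll synthesis, rose in all 6 heat comparisons, by 1.21, 2.42 and 1.21 in Annapurna and 1.31, 2.79 and 1.48 in IR64 for 37 °C and 42 °C against 28 °C and 42 °C against 37 °C, while CAB2R and RBCS were not called. The summed leaf genes at 28, 37 and 42 °C were 77265 to 81129, 74280.0 to 82684 and 85126 to 88816 in Annapurna and 60287 to 65548, 64634 to 68351 and 80138 to 82076 in IR64. The log2 ratio of 3' over 5' actin signal, a sign of RNA integrity, ran from 4.62 to 6.31 over the 18 arrays, with the highest value in an Annapurna control. All 18 arrays thus had far more 3' than 5' actin signal, and the reason was not tested. At 28, 37 and 42 °C the ratio was 5.09 to 6.31, 5.25 to 5.45 and 5.15 to 5.40 in Annapurna. In IR64 it was 4.62 to 5.03, 4.77 to 5.14 and 5.03 to 5.22. The cultivars thus did not overlap in this ratio at 28 and 37 °C, and its part in their differences was not tested.

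At 28 °C 4 of the 7 clade A genes were higher in Annapurna than in IR64 (57.1%, against 3.92% of all genes): OsPP2C68 (2.33 ± 0.16 log2), OsPP2C30 (2.04 ± 0.13), OsPP2C06 (1.77 ± 0.092) and OsPP2C09 (1.59 ± 0.065), with adjusted p from 1.8e-10 to 4e-08 and no overlap of the arrays. At 37 °C 4 were higher (57.1%, against 3.30%), OsPP2C51 (2.19 ± 0.026), OsPP2C06 (1.68 ± 0.092), OsPP2C30 (1.42 ± 0.13) and OsPP2C08 (1.25 ± 0.1, or 0.83 and not called with 64 added). At 42 °C 0 of 7 were called in limma, against 2.51% of all genes higher and 3.08% lower, with 2 positive and 3 negative differences at an unadjusted p under 0.05, and the values ran from -0.80 for OsPP2C30 to 0.73 for OsPP2C06. The median difference of the 7 genes was 1.59, 1.25 and 0.00016 log2 at 28, 37 and 42 °C. That of all genes was within 0.0386 of 0 at each step. The 42 °C median of the 7 is the value of OsPP2C51. This gene read 4.65 to 4.67 in Annapurna and 4.62 to 4.69 in IR64 at 42 °C, below the amount added before the logarithm. That median therefore does not show that the 7 genes were alike in the cultivars. The median size of their differences at 42 °C was 0.44, against 0.16 for all genes. Over the whole family, 8 members were higher in Annapurna at 28 °C (14.5%, against 3.92% of all genes), 7 at 37 °C (12.7%, against 3.30%) and 2 at 42 °C (3.64%, against 2.51%). The lower ones were 0 at 28 °C, 0 at 37 °C and 1 at 42 °C, against 2.25%, 2.15% and 3.08% of all genes. At an unadjusted limma p under 0.05, 10, 13 and 8 differences were negative and 30, 27 and 17 positive in the same order. Whether the probes match the transcripts of both cultivars equally was not tested.

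The difference between the cultivars in their response was tested directly, as the Annapurna response minus the IR64 response. It was called for 10 members at 42 °C against 28 °C: 6 were lower (10.9%, against 3.66% of all genes) and 4 higher (7.27%, against 1.88%). Clade A gave 4 of the 6 (57.1% of its genes): OsPP2C68 at -2.99 ± 0.22, adjusted p = 4e-07 (-3.84 with 1 added and -1.85 with 64); OsPP2C30 at -2.84 ± 0.18, adjusted p = 8.8e-08; OsPP2C09 at -2.03 ± 0.091, adjusted p = 3.8e-09; and OsPP2C06 near the threshold at -1.04 ± 0.13. The OsPP2C06 call was lost without IR64 control replicate 1 (-0.94) or replicate 2 (-0.99) and under quantile normalization (-0.92). At 37 °C against 28 °C 2 members were higher (3.64%, against 1.52%) and 4 lower (7.27%, against 1.3%), among them OsPP2C51 at 2.2 ± 0.037 and OsPP2C68 at -1.44 ± 0.22, which was -0.70 and not called with 64 added. Between 37 °C and 42 °C 6 were lower (10.9%, against 3.29%), 5 of them in clade A with OsPP2C30 at -2.22 ± 0.18, and 1 was higher (1.82%, against 1.84%). The differences against 28 °C use the control arrays of both cultivars, and so does the comparison of the controls given before.

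**Figure D3:**
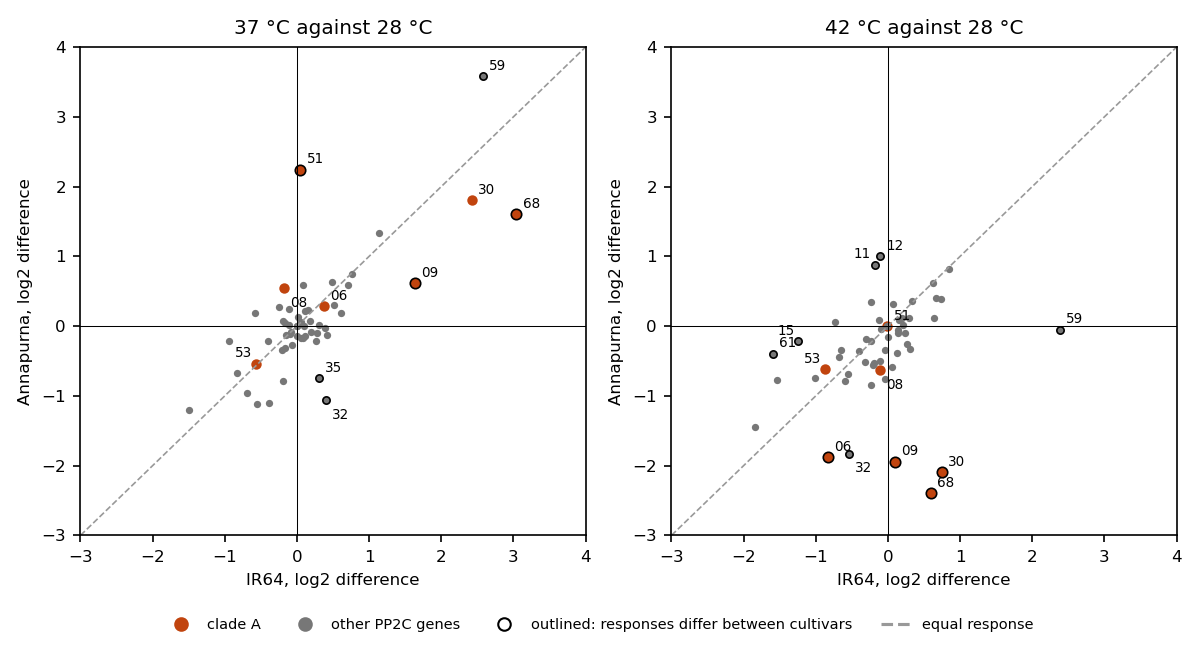
Log2 difference of each PP2C gene against 28 °C in Annapurna (vertical) and IR64 (horizontal), at 37 °C (left) and 42 °C (right); orange marks clade A, grey the other members, an outline a called difference between the responses, and numbers are the last digits of the gene name. Most genes lie near 0 in both, and at 42 °C OsPP2C09, OsPP2C30 and OsPP2C68 lie at -1.94 to -2.40 in Annapurna and between 0 and 1 in IR64.

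Outside clade A, 2 of 48 genes rose (4.17%, against 5.56% of all genes) and 4 fell (8.33%, against 4.75%) in Annapurna at 37 °C. At 42 °C against 28 °C in Annapurna 0 rose, against 3.40%, and 2 fell (4.17%, against 5.50%). In IR64 2 rose (4.17%, against 5.15%) and 1 fell (2.08%, against 4.07%) at 37 °C, and 1 rose (2.08%, against 6.45%) and 5 fell (10.4%, against 5.10%) at 42 °C. These shares lie within 3 genes of those of all genes, most of them below. For the 0 that rose in Annapurna at 42 °C, 8 had a positive and 24 a negative difference at an unadjusted limma p under 0.05. OsPP2C59, on chromosome 6, rose at 37 °C in both cultivars. It read 47.3, 39.5 and 33.8 at 28 °C, 669.8, 643 and 651 at 37 °C and 42.4, 34.2 and 37.8 at 42 °C in Annapurna. In IR64 the values were 13.3, 10.03 and 13.1 at 28 °C, 147, 146 and 161 at 37 °C and 132, 133 and 125 at 42 °C. Annapurna was back among its control values at 42 °C, and the IR64 arrays at 42 °C lay just below those at 37 °C and far above the controls. The rise at 37 °C was 3.58 ± 0.084, adjusted p = 3.3e-13 in Annapurna and 2.57 ± 0.084, adjusted p = 1.4e-11 in IR64. In IR64 it was higher at 42 °C than at 28 °C (2.38 ± 0.084, adjusted p = 2.5e-11) and in Annapurna the difference was -0.05 ± 0.084 (adjusted p = 0.77). The responses differed between the cultivars at 42 °C against 28 °C by -2.43 ± 0.12 log2 (adjusted p = 7.5e-09) and at 42 °C against 37 °C by -3.44 ± 0.12. The IR64 controls lay under the 16 added before the logarithm, so the sizes depend on the amount added. With 1 added the rise at 37 °C was 4.01 in Annapurna, and with 64 added 2.79, beside 3.54 and 1.5 in IR64, and the IR64 difference at 42 °C against 28 °C 3.33 and 1.35. The responses then differed by -3.39 and -1.38 at 42 °C against 28 °C and by -3.85 and -2.67 at 42 °C against 37 °C, all still called. Annapurna was higher than IR64 at 37 °C (2.00 ± 0.084) and lower at 42 °C (-1.43 ± 0.084, or -0.93 and not called with 64 added).

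OsPP2C62, the only other member outside clade A that rose, read 1171, 1311 and 1291 at 37 °C against 533, 457 and 483 at 28 °C in Annapurna, and 1545, 1722 and 1611 against 854, 749 and 604 in IR64. The heated arrays were all above the controls. The differences were 1.33 ± 0.097, adjusted p = 5.6e-08 in Annapurna and 1.14 ± 0.097, adjusted p = 3.3e-07 in IR64, and neither call held when the gene's 2 probe sets were averaged (0.95 and 0.34). The second probe set varied widely, from 5.17 to 233 over the 18 arrays.

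OsPP2C29 fell at 37 °C in both cultivars. It read 96.1, 94.6 and 78.3 at 37 °C against 233, 225 and 220.4 at 28 °C in Annapurna (-1.2 ± 0.098, adjusted p = 1.9e-07, or -0.92 and not called with 64 added), and 71.9, 60.3 and 70.3 against 208, 207 and 244 in IR64 (-1.5 ± 0.098, adjusted p = 2.1e-08). No heated array reached a control in either cultivar. In IR64 it was still lower at 42 °C, at 56.2, 76.3 and 64.4 (-1.53 ± 0.098, adjusted p = 1.3e-08), and in Annapurna the 42 °C difference was -0.78 ± 0.098, under 2-fold.

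OsPP2C34 is the gene also named BIPP2C2, a name given for its induction by a chemical inducer of disease resistance. It fell at the 42 °C step in both cultivars: Annapurna read 234, 191 and 213 at 42 °C against 639, 617 and 557 at 28 °C, and IR64 read 116, 149 and 125 against 446, 479 and 601. The 42 °C arrays lay below all controls in both. The differences against 28 °C were -1.44 ± 0.12, adjusted p = 1.8e-07 in Annapurna and -1.84 ± 0.12, adjusted p = 1e-08 in IR64. Against 37 °C they were -1.63 ± 0.12 in Annapurna and -1.26 ± 0.12 in IR64. Annapurna was higher than IR64 at 37 °C by 1.02 ± 0.12 log2, a call lost without Annapurna 37 °C replicate 1 (0.99) or IR64 37 °C replicate 2 (0.93), under quantile normalization (0.95) and with 64 added (0.93).

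OsPP2C32 fell in Annapurna, with 599.6, 576 and 691 at 28 °C, 276, 295 and 297 at 37 °C and 151, 148 and 194 at 42 °C. In IR64 it read 195, 185 and 164 at 28 °C, 228, 296 and 215 at 37 °C and 124, 121 and 113 at 42 °C. The Annapurna groups did not overlap and stepped downward, while the IR64 arrays at 37 °C lay above their controls and those at 42 °C below them. The Annapurna differences were -1.06 ± 0.12, adjusted p = 4.2e-06 at 37 °C and -1.83 ± 0.12, adjusted p = 1.5e-08 at 42 °C, the first lost without Annapurna control replicate 3 (-0.98) and with 64 added (-0.95). IR64 was at 0.40 ± 0.12 and -0.54 ± 0.12, under 2-fold. At 28 °C Annapurna was higher than IR64 (1.69 ± 0.12, adjusted p = 5.2e-08), and at 42 °C the cultivars differed by 0.40 ± 0.12.

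OsPP2C61 fell at 42 °C in IR64, to 25.1, 25.2 and 22.2 at 42 °C against 101, 98.97 and 116 at 28 °C, and 165, 128 and 144 at 37 °C. In Annapurna the arrays read 55.1, 48.8 and 50.95 at 42 °C against 67.1, 88.7 and 64.9 at 28 °C. The IR64 arrays at 42 °C were the lowest of the 18. The IR64 differences were -1.59 ± 0.10, adjusted p = 1.3e-08 against 28 °C (-0.94 and not called with 64 added) and -2.01 ± 0.10 against 37 °C, and Annapurna was at -0.40 ± 0.10 against 28 °C. The response was 1.74 ± 0.14 log2 higher in Annapurna for 42 °C against 37 °C (adjusted p = 1.2e-06). With 1 and with 64 added, the IR64 difference against 37 °C was -2.54 and -1.25 and that of the responses 2.2 and 1.08.

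OsPP2C12 set the cultivars apart at every step. It read 832, 668 and 998 in Annapurna against 85.3, 80.7 and 87.02 in IR64 at 28 °C. At 37 °C it read 919, 896 and 889 in Annapurna against 70.9, 98.8 and 87.8 in IR64, and at 42 °C 1993, 1756 and 1301 against 88.4, 76.8 and 67.1. No array of one cultivar came near those of the other. Annapurna was higher by 3.06 ± 0.16, 3.18 ± 0.16 and 4.17 ± 0.16 log2 at 28, 37 and 42 °C, with adjusted p of 2.6e-09, 1.7e-09 and 7.1e-11. Its probe set can also read related transcripts. In Annapurna the difference at 42 °C against 28 °C was 1.00 ± 0.16, adjusted p = 0.00016, where the fold just missed the threshold.

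**Figure D4:**
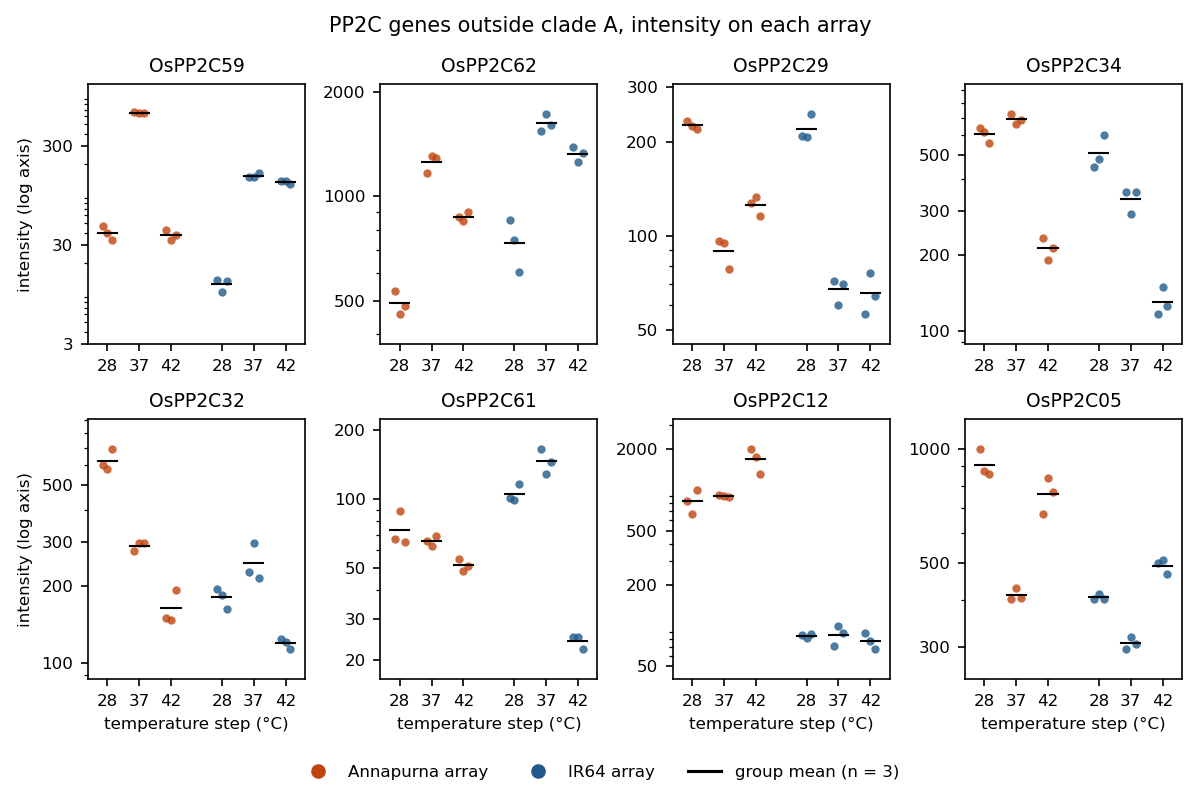
Intensity (log axis) of 8 PP2C genes outside clade A on each of the 18 arrays by temperature step, Annapurna left and IR64 right in each panel, with a bar at each group mean of 3 arrays. OsPP2C59 is high at 37 °C in Annapurna and at both heat steps in IR64, OsPP2C34 is lowest at 42 °C in both cultivars, and OsPP2C12 is higher on all Annapurna arrays.

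Smaller calls completed the list. OsPP2C05 averaged 413 ± 15.2 at 37 °C against 909 ± 76.9 at 28 °C in Annapurna and fell by 1.11 log2 (adjusted p = 1.4e-08); in IR64 the difference was -0.39 ± 0.071, and at 28 °C Annapurna was higher by 1.12 ± 0.071. OsPP2C21 averaged 135 ± 17.3 against 311 ± 25.00 in the same comparison and fell by 1.12 log2 (-0.92 and not called with 64 added). Its only probe set can also read related transcripts. OsPP2C15 averaged 174 ± 12.98 at 42 °C against 436 ± 66.2 at 28 °C in IR64 (-1.24 ± 0.11, adjusted p = 2.4e-07), and -0.22 log2 separated these steps in Annapurna. OsPP2C02 averaged 107 ± 3.66 at 42 °C against 232 ± 18.7 at 28 °C in IR64 (-1.01 ± 0.057, adjusted p = 3.2e-09), a call lost without IR64 control replicate 3 (-0.96) and with 64 added (-0.79), and just under 2-fold without IR64 42 °C replicate 3. At 42 °C OsPP2C02 was higher in Annapurna than in IR64 by 1.15 ± 0.057 (0.91 with 64 added). OsPP2C78 was higher in Annapurna at 28 °C, at 85.6 ± 14.4 against 25.3 ± 4.37 in IR64 (1.3 ± 0.13, adjusted p = 2.7e-06, or 0.74 with 64 added).

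The remaining 39 of the 55 genes were called in no heat comparison. Of these, OsPP2C28 averaged 2586 ± 309, 3108 ± 66.00 and 1890.1 ± 35.1 in Annapurna at 28, 37 and 42 °C and 3079.6 ± 249, 2588 ± 27.2 and 1923 ± 111 in IR64, with differences against 28 °C between -0.67 and 0.27. OsPP2C35 encodes XB15, which binds the rice immune receptor XA21 and damps its signal. It averaged 375 ± 16.3 at 37 °C against 640.1 ± 66.2 at 28 °C in Annapurna and 499.6 ± 10.9 against 402 ± 32.97 in IR64. The Annapurna arrays were below and the IR64 arrays above their controls, by -0.74 ± 0.067 and 0.31 ± 0.067 log2, neither reaching 2-fold. OsPP2C18 and OsPP2C31 had mean intensities under 16, the amount added before the logarithm. OsPP2C39 has 2 probe sets that disagree: the one used, which can read related transcripts, was not called, and the other fell in Annapurna at 37 °C (-2.02 ± 0.11) and at 42 °C (-2.11 ± 0.11), with -0.58 ± 0.11 and -0.69 ± 0.11 in IR64; it was picked out after its values were seen.

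The genes that act with clade A were followed as 4 lists chosen by name. Of the ABA receptors the annotation gave 1 measured gene, PYL11, which also bears the names PYL5 and RCAR5. It read 926, 873 and 813 at 28 °C, 520.0, 576 and 515 at 37 °C and 1332, 1385 and 1665 at 42 °C in Annapurna, and 703, 773 and 768 at 28 °C, 458, 473 and 454 at 37 °C and 1068, 1095 and 1100.4 at 42 °C in IR64. Within each cultivar the 3 groups did not overlap, with the 37 °C arrays lowest and the 42 °C arrays highest. The gene rose at 42 °C against 37 °C in Annapurna (1.41 ± 0.073, adjusted p = 1.6e-09) and in IR64 (1.21 ± 0.073, adjusted p = 1.4e-08). Against 28 °C the differences were -0.68 ± 0.073 at 37 °C and 0.73 ± 0.073 at 42 °C in Annapurna and -0.68 ± 0.073 and 0.53 ± 0.073 in IR64, all under 2-fold. The clade A genes OsPP2C09, OsPP2C30 and OsPP2C68 had their highest arrays at 37 °C in both cultivars, where PYL11 had its lowest. Others did not share this: OsPP2C53 was at -0.54 in Annapurna and -0.57 in IR64 at 37 °C against 28 °C. In IR64 OsPP2C06, OsPP2C08 and OsPP2C51 were at 0.37, -0.19 and 0.04 there, all uncalled.

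The SnRK2 kinases (SAPK1 to SAPK10) are a family that includes targets of clade A phosphatases. Of these 10 genes, 1 rose and 1 fell in Annapurna at 37 °C, against 5.56% and 4.75% of all genes. At 42 °C 0 rose and 1 fell, against 3.40% and 5.50%. In IR64 1 rose and 0 fell at 37 °C, against 5.15% and 4.07%, and 2 rose and 0 fell at 42 °C, against 6.45% and 5.10%. In a list of 10, these counts lie within 2 genes of the shares of all genes. Behind each 0, between 2 and 3 kinases had a difference of that sign at an unadjusted limma p under 0.05. Between 4 and 5 had the other sign. SAPK6, known to phosphorylate ABA response bZIP factors, averaged 709.9 ± 30.4 at 37 °C against 253 ± 13.3 at 28 °C in Annapurna (1.43 ± 0.082, adjusted p = 4.1e-09) and 376 ± 25.00 against 99.7 ± 11.6 in IR64 (1.76 ± 0.082, adjusted p = 5.5e-10). SAPK6 was higher at 42 °C than at 28 °C in IR64 (1.48 ± 0.082), and the difference was 0.16 ± 0.082 in Annapurna. SAPK1 fell in Annapurna at 42 °C, to 235, 223 and 229 against 803, 803 and 722 at 28 °C (-1.69 ± 0.055, adjusted p = 1.5e-11), where IR64 had -0.24 ± 0.055. The responses of SAPK1 at 42 °C differed by -1.45 ± 0.078 and those of SAPK6 by -1.31 ± 0.12, both called. SAPK3 rose in IR64 at 42 °C against 28 °C (1.17 ± 0.088), and SAPK9 fell in Annapurna at 37 °C (-1.03 ± 0.086, or -0.84 and not called with 64 added). The SAPK9 probe set can also read related transcripts. SAPK2, called in no heat comparison, had log2 differences from -0.02 to 0.10 in all 6 heat comparisons.

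Of the ABA response bZIP factors 2 were measured. BZIP23, an activator of ABA-responsive genes, averaged 2401 ± 293, 4999 ± 228 and 1443 ± 104 in Annapurna at 28, 37 and 42 °C and 1598 ± 55.4, 2601 ± 53.5 and 915 ± 57.7 in IR64. It fell at 42 °C against 37 °C in Annapurna (-1.78 ± 0.076, adjusted p = 2e-10) and IR64 (-1.49 ± 0.076, adjusted p = 2.4e-09). Its rise at 37 °C in Annapurna (1.06 ± 0.076) was lost without Annapurna control replicate 3 (0.97) and under quantile normalization (0.99). TRAB1, a factor of the same class, was called in no heat comparison, with differences between -0.67 and 0.15.

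Of the genes that make or break down ABA, 3 were measured. ZEP1 (OsABA2 in the annotation, where a second, unmeasured gene shares its symbol) encodes zeaxanthin epoxidase, an early enzyme of ABA synthesis. It averaged 1404 ± 90.1 at 37 °C against 535 ± 65.5 at 28 °C in Annapurna and 975 ± 26.9 against 379 ± 37.3 in IR64, and rose in both (1.37 ± 0.086 and 1.33 ± 0.086). It fell in both at 42 °C against 37 °C (-1.49 ± 0.086 and -1.17 ± 0.086). ABA8OX1, an ABA hydroxylase that starts ABA breakdown, read 189.5, 203 and 216 at 42 °C against 1528, 1290.3 and 1071 at 28 °C in Annapurna (-2.57 ± 0.12, adjusted p = 5.8e-10) and 266, 243 and 267 against 1454, 1458 and 1924 in IR64 (-2.56 ± 0.12, adjusted p = 4.8e-10). All 42 °C arrays were below all controls. It had already fallen at 37 °C in IR64 (-2.22 ± 0.12), with -0.94 ± 0.12 in Annapurna. ABA8OX2, a second enzyme of this kind, was read by a probe set that can also read related transcripts. It rose at 37 °C in Annapurna (1.3 ± 0.099) and was at 0.82 ± 0.099 in IR64. At 42 °C against 37 °C it fell in Annapurna (-2.18 ± 0.099) and was at -0.12 ± 0.099 in IR64, and these responses differed by -2.06 ± 0.14, adjusted p = 1.7e-07.

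**Figure D5:**
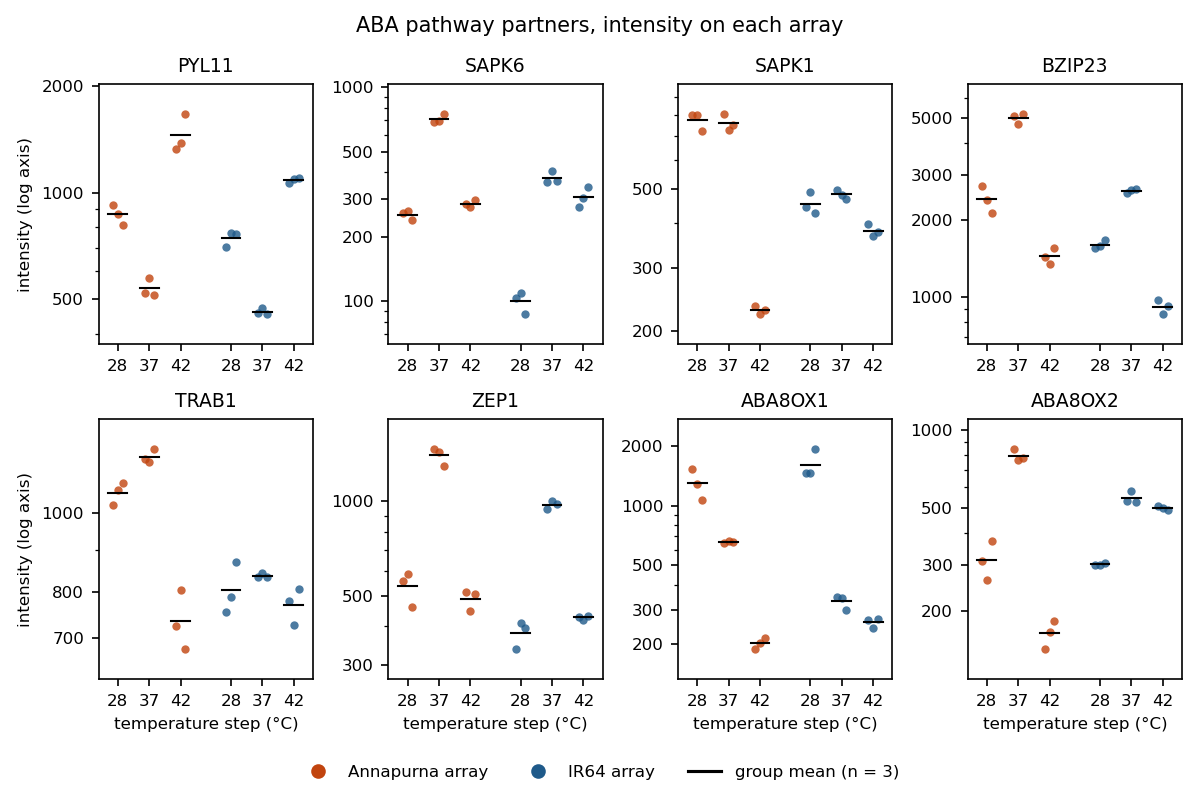
Intensity (log axis) of 8 genes of ABA perception, signalling, synthesis and breakdown on each of the 18 arrays by temperature step, Annapurna left and IR64 right in each panel, with a bar at each group mean of 3 arrays. PYL11 is lowest at 37 °C and highest at 42 °C in both cultivars, ZEP1 and BZIP23 peak at 37 °C in both, and ABA8OX1 is lowest at 42 °C.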

How the data were processed

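Expression was measured on 18 Affymetrix arrays of whole rice seedlings, 3 arrays in each of 6 groups of cultivar and temperature taken from the labels. Each deposited value is a probe set's intensity on a linear scale, for which the submitters' processing notes name GCOS; the sources used here do not give how the probes were summarized and the arrays scaled. The range of array medians was 0.0372 log2, so the values were used as deposited, without further normalization. From the 57381 probe sets, 123 Affymetrix controls were left out, and the other 57258 were tested without a filter on low values. Of those, 22436 name 1 gene in the platform annotation, 95 name several and 34727 name none; the 17905 genes so named are those counted here. A gene was represented by its probe set of highest mean, and 12 members have several.

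The deposited intensities plus 16 were put on the log2 scale and fitted with limma 3.58.1 in R 4.3.3 (lmFit, then eBayes with a variance trend, 12 residual degrees of freedom), with 12 contrasts and Benjamini-Hochberg adjustment over all probe sets in each. Tables and figures were made with Python 3.11.15, pandas 2.3.3, numpy 2.4.6 and matplotlib 3.10.9. The fit was tested on simulated data. Calls needed an adjusted p under 0.05 and 2-fold. The genes named are the clade A members, the largest calls of other members in each contrast, the uncalled member of highest mean, and by the same choice the called genes and 1 uncalled gene of each partner list. OsPP2C35, OsPP2C39, OsPP2C18, OsPP2C31 and TRAB1 are named besides. The members, lists and rules were chosen with earlier results of these data known. The alternatives were other added amounts (1 and 64), quantile normalization, dropping the dimmer probe sets, no variance trend, a 1.5-fold threshold, the mean over a gene's probe sets, the replicate number as a block, and leaving out each array. The labels call the arrays biological replicates without saying from which cultures they came, so p-values measure the spread between these samples. No depth applies to arrays, and 3 arrays a group limit the precision. No sequence of a probe, promoter or protein was used here.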

Additional observations from a re-analysis of the deposited data

Results flagged for a closer look

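In 23 cases limma's test of the difference between the cultivars, the Annapurna response minus the IR64 response, was called for a member. Differences given here are log2. OsPP2C68 was at -2.99 at 42 °C against 28 °C and -1.55 at 42 °C against 37 °C, OsPP2C30 at -2.84 and -2.22 and OsPP2C59 at -2.43 and -3.44 in the same comparisons. OsPP2C09 was at -2.03 at 42 °C against 28 °C. OsPP2C51 was at 2.2 at 37 °C against 28 °C and -2.19 at 42 °C against 37 °C, both from the 3 Annapurna arrays at 37 °C. OsPP2C32 was at -1.46 at 37 °C and -1.29 at 42 °C against 28 °C, and OsPP2C61 at 1.2 at 42 °C against 28 °C (0.69 and not called with 64 added) and 1.74 at 42 °C against 37 °C. OsPP2C68 was at -1.44 at 37 °C (-0.70 and not called with 64 added), and OsPP2C08 at -1.25 at 42 °C against 37 °C (-0.83 and not called with 64 added).

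The other cases were near the 2-fold threshold, and single arrays or the processing decided them. OsPP2C06 was at -1.04 at 42 °C against 28 °C, and at -0.94 without IR64 control replicate 1, -0.99 without IR64 control replicate 2 and -0.92 under quantile normalization. OsPP2C09 was at -1.02 at 37 °C; without Annapurna control replicate 1 it was just under 2-fold, and without IR64 control replicate 2 or Annapurna 37 °C replicate 2 it was -0.99, with 64 added -0.92 and under quantile normalization -0.98. OsPP2C09 was at -1.01 at 42 °C against 37 °C, and at -0.98 without Annapurna 37 °C replicate 3 or Annapurna 42 °C replicate 1 and -0.93 without IR64 42 °C replicate 1, -0.94 with 64 added and -0.90 under quantile normalization. OsPP2C35 was at -1.05 at 37 °C, and at -0.98 without Annapurna control replicate 1, -0.99 without IR64 control replicate 1 and -0.95 with 64 added.

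OsPP2C11 was at 1.06, OsPP2C12 at 1.11 and OsPP2C15 at 1.02 at 42 °C against 28 °C. OsPP2C11 was 0.99 without IR64 control replicate 3 or Annapurna 42 °C replicate 1, and just under 2-fold without IR64 42 °C replicate 1. OsPP2C12 was 0.96 without Annapurna control replicate 2 and 0.98 without Annapurna 42 °C replicate 1. OsPP2C15 was 0.92 without Annapurna control replicate 3, 0.91 without IR64 control replicate 3, 0.97 without IR64 42 °C replicate 1 and 0.87 with 64 added. OsPP2C59 at 37 °C was at 1.01, and at 0.93 without Annapurna control replicate 3, 0.98 without IR64 control replicate 1 and 0.99 without IR64 control replicate 3, Annapurna 37 °C replicate 1, or IR64 37 °C replicate 1 or 2, and 0.96 under quantile normalization. With 1 added before the logarithm the OsPP2C59 difference at 37 °C was 0.46 (limma adjusted p = 0.098).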

How the results depend on the processing

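Of the single-gene values, 2560 kept their direction and their side of the threshold with 1 array left out and 32 did not, and 1108 kept both under the other alternatives. The 3 reversals were uncalled values near 0 under quantile normalization: OsPP2C08 in IR64 at 42 °C against 37 °C (-0.011), and OsPP2C09 (-0.034) and OsPP2C51 (0.0026) in IR64 at 42 °C against 28 °C. Another 9 values became calls at 1.5-fold and 32 calls were lost under these alternatives.

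Counts of called members moved most with the fold threshold. At 1.5-fold, the members higher and lower were 9 and 8 (5 and 4 at 2-fold) in Annapurna at 37 °C, 4 and 15 (0 and 6) at 42 °C and 4 and 14 (0 and 8) at 42 °C against 37 °C. In IR64 they were 8 and 4 (5 and 1), 8 and 11 (1 and 5) and 2 and 11 (0 and 6). Between the cultivars, 14 were higher and 1 lower at 28 °C (8 and 0), 2 lower at 37 °C (0), and 10 higher and 5 lower at 42 °C (2 and 1). For the difference of responses, 5 were higher and 7 lower at 37 °C (2 and 4), 10 lower at 42 °C (6), and 4 higher at 42 °C against 37 °C (1). Clade A members higher and lower at 1.5-fold were 2 and 2 in IR64 at 42 °C (0 and 0), and 1 and 2 between cultivars at 42 °C (0 and 0). In clade A 2 members had a higher response at 37 °C (1). Over all genes the shares at 1.5-fold were 16.3% and 11.2%, 6.07% and 6.70%, and 3.93% in the same order. Shares of all genes at 1.5-fold stand beside the family counts in the results above. For the other alternatives they are not given here, so those counts show only how the calls depend on the processing.

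With 64 added, 1 member was lower in Annapurna at 37 °C (4) and 3 in IR64 at 42 °C (5), 1 was higher and 0 lower between cultivars at 42 °C (2 and 1), and the response was lower for 1 at 37 °C (4) and higher for 2 at 42 °C (4). In clade A the lower responses were then 0 at 37 °C (2) and 3 at 42 °C against 37 °C (5). With 1 added, 1 was higher in Annapurna at 42 °C (0) and in IR64 at 42 °C against 37 °C (0), 1 lower between cultivars at 37 °C (0), 4 higher at 42 °C (2), and the response was higher for 1 at 37 °C (2) and 2 at 42 °C against 37 °C (1). Quantile normalization gave 1 higher in Annapurna at 42 °C (0), 1 lower between cultivars at 37 °C (0), and higher responses for 1 at 37 °C (2) and 2 at 42 °C against 37 °C (1), with 1 lower clade A response at 37 °C (2). The mean over probe sets gave 1 lower between cultivars at 28 °C (0).

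Leaving out 1 array moved 9 family counts by over 1.5 times. Members higher ranged from 0 to 1 in Annapurna at 42 °C (1 without control replicate 1 or 3 or 42 °C replicate 3), 0 to 1 in Annapurna at 42 °C against 37 °C (1 without 42 °C replicate 3) and 0 to 1 in IR64 at 42 °C against 37 °C (1 without 37 °C replicate 1 or 42 °C replicate 1). Members lower ranged from 1 to 2 in IR64 at 37 °C (2 without control replicate 1 or 37 °C replicate 1) and 0 to 1 between cultivars at 37 °C (1 without Annapurna replicate 3 or IR64 replicate 2). Responses at 37 °C were higher for 1 to 2 members (1 without Annapurna control replicate 3, IR64 control replicate 1 or 3, Annapurna 37 °C replicate 1, or IR64 37 °C replicate 1 or 2) and lower for 2 to 4 (2 without Annapurna control replicate 1). They were higher for 2 to 4 members at 42 °C (2 without IR64 control replicate 3, Annapurna 42 °C replicate 1 or IR64 42 °C replicate 1). They were higher for 1 to 2 at 42 °C against 37 °C (2 without Annapurna 37 °C replicate 1, IR64 37 °C replicate 1, Annapurna 42 °C replicate 3 or IR64 42 °C replicate 1). Lower clade A responses at 37 °C ranged from 1 to 2 (1 without Annapurna control replicate 1, IR64 control replicate 2 or Annapurna 37 °C replicate 2).

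The arrays were not treated as paired by replicate number. Deviations from the group mean were correlated between arrays of different groups. The 45 same-numbered pairs ran from -0.19 to 0.17 (median 0.0055, 7 over 0.1). The 90 other-numbered pairs ran from -0.24 to 0.22 (median -0.0036). These correlations do not tell how the samples were prepared. With the replicate number as a block the counts in Annapurna stayed at 5 higher and 4 lower at 37 °C and 0 and 6 at 42 °C, and all 192 values kept their direction and side. Low intensities limit the dim members, and 5 members, OsPP2C51 among them, have a mean under 50. How the probes were summarized is unknown.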
